A study of Homo sapiens with 12 samples.

Results

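The transcriptional response to doxorubicin was examined in HCC1806 cells depleted of MLK4, from 6 of the 12 mRNA-seq libraries of the experiment and across all 17013 genes of the deposited table. HCC1806 is a human triple-negative breast cancer (TNBC) cell line. All 6 libraries came from cells that had received a pool of 4 siRNAs against MLK4 (siMLK4). In 3 of them 1 μM doxorubicin was added 24 h after transfection and left for 24 h (siMLK4 doxorubicin), and the other 3 received no drug (siMLK4 vehicle). The sources name the drug-free cells untreated, vehicle treated or DMSO treated, DMSO being the name in the sample labels. The study's methods and legends describe them as kept for the same 24 h, although their short names mark time 0. The other 6 libraries came from cells with a non-targeting siRNA (siNT), 3 with vehicle and 3 with doxorubicin, and their values are set beside those of siMLK4 cells only to show where the responses differed. The cells were transfected in triplicate. The study's methods state in general that experiments were repeated, but do not say for these libraries whether replicates were separate experiments, so that p-values may measure only the spread between these samples. The siMLK4 cells carry a transient knock-down by siRNA, not a deletion.

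Doxorubicin is an anthracycline that intercalates into DNA and traps topoisomerase II on it, which leaves DNA double-strand breaks, and it can also displace histones from chromatin. The breaks activate the kinases ATM and ATR and through them checkpoints, repair, p53 and NF-κB. MLK4, encoded by MAP3K21, belongs to the mixed-lineage kinases, which act upstream of the JNK and p38 MAP kinase cascades.

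The 4 siRNAs of the pool are shown as they define the cells described here. Each is given as its sense strand with the UU overhang, and the capitals mark the bases that pair with the seed of the guide strand (guide bases 2 to 8).
siMLK4 #1, site in exon 9 at chr1:233379030-233379048: ggaaagaugcuCAGAGAGauu
siMLK4 #2, site in exon 5 at chr1:233362204-233362222: aggagaagcccAAGGUAAauu
siMLK4 #3, site in exon 9 at chr1:233379276-233379294: agaagaaacgaGAGGGAAuuu
siMLK4 #4, site in exon 7 at chr1:233376047-233376065: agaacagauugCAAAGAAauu
The first 19 bases of each matched the main MAP3K21 transcript at 1 place in the coding sequence, and among GENCODE release 44 transcripts they matched MAP3K21 alone. All 4 sites lie on the + strand, and coordinates are those of GRCh38.

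MAP3K21 (ENSG00000143674, chromosome 1 from 233327724 to 233385148 on the + strand of GRCh38) checked the labels. With siMLK4 it had 103, 94.7 and 88.6 normalised reads under vehicle and 113, 138 and 94.4 under doxorubicin. The siNT libraries had 553, 670 and 674 normalised reads with vehicle and 758, 856 and 772 with doxorubicin. Every siMLK4 library therefore lay below every siNT library. Within siMLK4 cells the drug changed MAP3K21 by 0.18 (SE 0.12, adjusted p = 0.22) on the log2 scale, which did not pass the test.

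Normalised reads are reads divided by the authors' size factors, and log2 changes were estimated on the variance-stabilised values, a scale that understates the changes of genes with few reads. A gene is said to have risen or fallen where its log2 change exceeded 0.75 in size and its adjusted p in limma (Benjamini-Hochberg over all genes) was under 0.01. The siMLK4 vehicle libraries held 18092154, 18304034 and 17402498 reads and the siMLK4 doxorubicin libraries 18901864, 19302248 and 18044286. Markers of basal and squamous breast epithelium were present, with KRT5 at 33617, 31750 and 31404 and TP63 at 4269, 3093 and 3167 normalised reads in the vehicle libraries. All 7 luminal and hormone receptor markers looked at were listed, too. KRT18 had 12170, 14606 and 14507 normalised reads with vehicle, GATA3 1876, 1919 and 2994, ERBB2 1861, 1793 and 2027, FOXA1 269, 234 and 271 and the oestrogen receptor gene ESR1 128, 148 and 74.6, and KRT8 is described below. With doxorubicin KRT18 had 5446, 4463 and 7240 normalised reads and ESR1 41.6, 50 and 55.3. GATA3 then had 2389, 2298 and 2638, ERBB2 1884, 1797 and 1878 and FOXA1 304, 293 and 262. PGR, the progesterone receptor gene, had 0 reads in all 3 vehicle libraries and 11.9, 15.8 and 7.26 normalised reads with doxorubicin. Of 12 markers of other cells, DCN, COL3A1, PECAM1, CDH5, CD3E and CD68 are not among the listed genes, and 6 had reads. Of the fibroblast markers, LUM, a matrix proteoglycan gene, had 189, 149 and 232 normalised reads with vehicle and 13.6, 14.2 and 21.8 with doxorubicin. COL1A1 had 513, 496 and 577 with vehicle and 394, 344 and 478 with doxorubicin. PDGFRB had 26, 20.9 and 23.8 with vehicle and 6.78, 4.17 and 2.72 with doxorubicin. The endothelial marker VWF had 31.9 to 67.1 normalised reads over the 6 libraries and the monocyte marker CD14 had 19 to 43.4. PTPRC, a leukocyte gene, had at most 3.24 in the vehicle and 20.9 in the doxorubicin libraries. The part of these markers in the results was not tested.

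One siMLK4 library stood apart before any comparison. Reads of cytosolic ribosomal protein genes made up 9.57% of siMLK4 vehicle replicate 3, against 5.44% and 6.29% in replicates 1 and 2, and genes spanning under 10 kb made up 25.94% against 19.79% and 21.31%. Its root mean square difference from the other siMLK4 vehicle libraries was 0.381 and 0.308 log2 units, while those differed from each other by 0.197. Counts that moved by over 1.5 times or changed their leading direction without it are given below with both values, as are those of other groups where so stated. Component 1 of the 6 siMLK4 libraries held 83.5% of the variance and separated vehicle (−42.8, −43.2 and −45.2) from doxorubicin (45.7, 54.3 and 31.1). Component 2 held 10.5% and had siMLK4 vehicle replicate 3 at one end, at −26.7. Among the siNT vehicle libraries, replicate 1 had 7.57% of reads from cytosolic ribosomal protein genes, against 5.95% and 5.51% in replicates 2 and 3. It differed from these by 0.294 and 0.368 log2 units, while they differed from each other by 0.249.

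After doxorubicin, 3949 of 17013 genes (23.2%) had changed in siMLK4 cells, of which 2147 rose (12.6% of all genes) and 1802 fell (10.6%). The median change was 1.03 among those that rose and −1.04 among those that fell, against 0.02 over all genes. A log2 change over 2 was reached by 83 genes upward and 56 downward. In 3948 of the 3949 genes the vehicle and doxorubicin libraries did not overlap. Of the genes that rose, 283 had at most 3 reads in every vehicle library, and of those that fell, 14 had at most 3 reads in every doxorubicin library. The share of calls that were rises was 54.4% and depended on the scaling and on a read filter. With library totals in place of the size factors, which moved the median of all genes to 0.16, it was 69.4%. It was 53.9% with trimmed mean of M-values scaling. Among the genes whose reads numbered at least 10 in each library it was 44.3%. When siMLK4 vehicle replicate 3 was left out, 4025 genes passed, 2223 upward and 1802 downward. In siNT cells 3859 genes (22.7%) changed, 2060 upward (12.1%) and 1799 downward (10.6%).

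**Figure D1:**
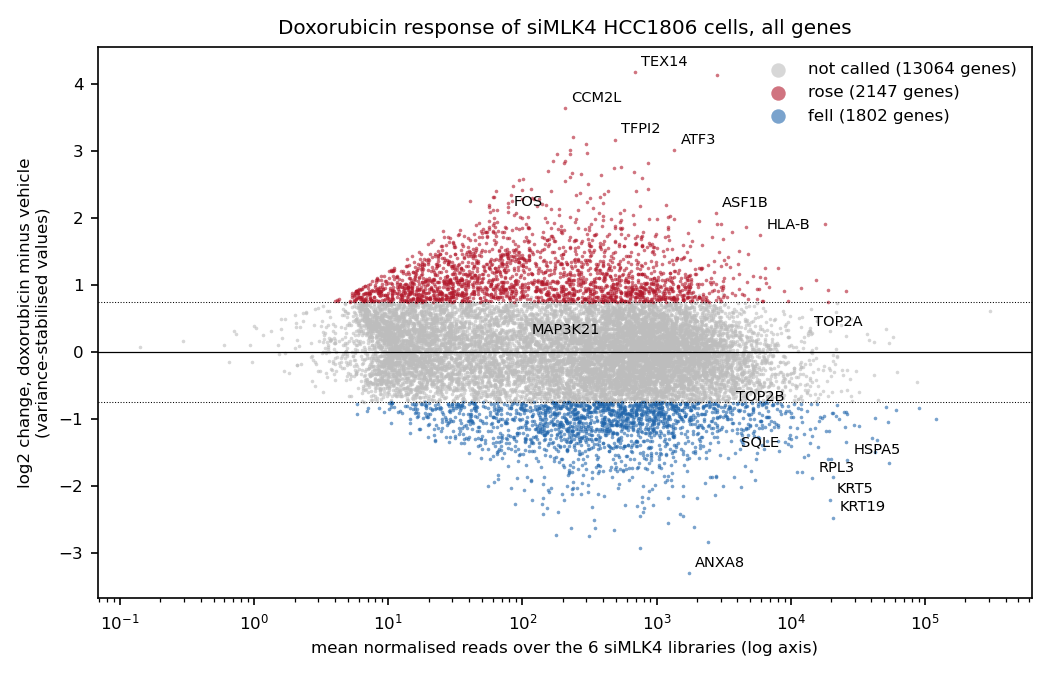
Log2 change with doxorubicin in siMLK4 cells (vertical axis, variance-stabilised values) against mean normalised reads of the 6 siMLK4 libraries (horizontal log axis), 1 point a gene, coloured by call, with dotted lines at 0.75 and −0.75. Of the 2147 genes that rose 713 lie in the lowest quartile of mean normalised reads, against 163 of the 1802 that fell. These quartiles were set on all 12 libraries, not on the 6 of the axis.

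The largest rises among protein-coding genes were those of TEX14, a gene of intercellular bridges in germ cells, and CCM2L. TEX14 had 33.1, 25.9 and 31.4 normalised reads with vehicle and 1379, 1811 and 855 with doxorubicin (log2 change 4.18, SE 0.25, adjusted p = 4e-08). CCM2L had 1, 1.99 and 4.32 reads with vehicle and 443, 524 and 264 with doxorubicin (3.64, SE 0.20, adjusted p = 3.8e-08). In both genes the lowest doxorubicin library was replicate 3 and still lay far above every vehicle library. TMEM158 (3.21), the protease inhibitor gene TFPI2 (3.17), the stress transcription factor gene ATF3 (3.02), the transporter gene SLC16A6 (3.02), PBLD (2.97), the T-type calcium channel gene CACNA1G (2.96), the thyroid hormone deiodinase gene DIO3 (2.95) and SHISA2 (2.85) followed.

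The largest falls included 3 annexin genes, which encode calcium-dependent membrane-binding proteins. ANXA8 fell from 3207, 2953 and 3411 normalised reads to 249, 220 and 385 (−3.30, SE 0.17, adjusted p = 2.2e-08), ANXA6 by 2.74 and ANXA8L1 by 2.66 on the log2 scale, and reads of ANXA8 and its near-identical copy ANXA8L1 may be shared between them. FGFBP1, the gene of a carrier of fibroblast growth factors (−2.92), and IL18, a cytokine gene (−2.83), fell as well. IL18 had 3422, 3877 and 5479 normalised reads with vehicle and 516, 391 and 785 with doxorubicin. PACSIN1 (−2.73), the keratin genes KRT15 (−2.63) and KRT4 (−2.61) and ZBED2 (−2.62) followed. None of these genes with the largest changes differed between siMLK4 and siNT cells in the test of the difference described below, where KRT15 came nearest (−1.07, adjusted p = 0.017).

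In bulk RNA, fewer cells of a type and less RNA per cell cannot be told apart. Gene groups are described by how many of their measured members rose or fell, against 12.6% and 10.6% of all genes, and by their median beside the all-gene median of 0.02. Of 49 genes of DNA replication and E2F targets 11 rose and none fell (median 0.32), and 8 rose in siNT cells. The histone chaperone gene ASF1B had 1034, 1021 and 1024 normalised reads with vehicle and 4772, 4807 and 3968 with doxorubicin (2.08, SE 0.12, adjusted p = 3.8e-08). GINS4, a subunit gene of the replicative helicase, rose by 1.87 and E2F2, an activating E2F factor gene, by 1.74. CCNE1, which encodes cyclin E1, rose from 2457, 3102 and 2084 to 7263, 7924 and 5974 normalised reads (1.46, SE 0.17, adjusted p = 7.8e-06). The member with the most reads, the ribonucleotide reductase gene RRM2, changed by −0.45 (adjusted p = 0.013) and did not pass. With library totals as the scaling 19 members rose.

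Of 52 genes of G2 and mitosis 2 rose and 1 fell (median 0.14). With library totals 7 rose and 1 fell, while 1 rose and 1 fell without siMLK4 doxorubicin replicate 1 and 2 rose and 2 fell without siMLK4 doxorubicin replicate 3. The proliferation gene MKI67 had 18758, 13740 and 7408 normalised reads with vehicle and 14797, 18398 and 12290 with doxorubicin, so that the groups overlapped (0.27, SE 0.35, adjusted p = 0.53, and −0.10 without siMLK4 vehicle replicate 3). CKS2, a cyclin-dependent kinase subunit gene, rose by 0.84, CDC25C, the phosphatase gene of mitotic entry, by 0.82, and the condensin gene NCAPH fell by 1.01. CDC25C was at 0.74 and did not pass without siMLK4 doxorubicin replicate 1. In siNT cells 0 of 52 rose and 7 fell, and 0 of 52 passed the test of the difference between the responses.

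Among G1 cyclins and CDK inhibitors 6 of 16 rose and none fell (median 0.46). CDKN1A, which encodes the CDK inhibitor p21, rose from 1257, 1436 and 1715 normalised reads to 4899, 4398 and 5157 (1.69, SE 0.16, adjusted p = 1.7e-06). CDKN2C, the gene of the inhibitor p18, rose by 1.76 and CCNA1, the gene of cyclin A1, by 1.05. CCND1, the gene of cyclin D1, changed by −0.23 (adjusted p = 0.13). Of 34 p53 target genes 6 rose and 2 fell (median 0.25), or 4 and 3 without siMLK4 vehicle replicate 3. The BH3-only gene PMAIP1 rose by 1.57, the phosphatase gene PPM1D by 1.43 and TP53INP1 by 1.16, whereas CCNG1 fell from 1851, 1857 and 2240 normalised reads to 546, 519 and 683 (−1.68, SE 0.12, adjusted p = 1.7e-07). Of 35 genes of the BCL2 family, caspases and death receptors 5 rose and 2 fell (median −0.04). The pro-apoptotic BH3-only genes BCL2L11 (1.35) and BMF (0.98) and the TNF receptor gene TNFRSF1B (1.74) rose, and the inflammatory caspase genes CASP1 (−1.53) and CASP4 (−1.11) fell.

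Genes of DNA break signalling and repair fell more often than they rose, with 9 of 46 that fell and 2 that rose (median 0.01). NBN, the MRN complex subunit that brings ATM to breaks, had 1850, 1687 and 1321 normalised reads with vehicle and 472, 396 and 537 with doxorubicin (−1.68, SE 0.15, adjusted p = 8.8e-07). H2AX, the histone variant that ATM phosphorylates at breaks, fell from 2195, 2604 and 2592 to 729, 639 and 809 (−1.69, SE 0.17, adjusted p = 2.1e-06). The checkpoint kinase gene CHEK2 fell by 1.30 and the end-joining factor gene PAXX by 1.16, and the vehicle and doxorubicin libraries of these 4 genes did not overlap. XRCC6, the gene of the Ku70 end-joining subunit, changed by −0.38 (adjusted p = 0.0045), below the size threshold. Without siMLK4 vehicle replicate 3 none of the 46 rose and 10 fell, and with library totals 4 rose and 5 fell. Leaving out siMLK4 doxorubicin replicate 2 gave 0 that rose and 7 that fell.

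Of the drug's targets, TOP2A had 12639, 11624 and 12263 normalised reads with vehicle and 14856, 14152 and 15565 with doxorubicin (0.29, SE 0.10, adjusted p = 0.023), which did not pass. TOP2B fell from 5130, 4538 and 3904 to 2457, 2632 and 2481 (−0.82, SE 0.12, adjusted p = 5.9e-05), and it missed the size threshold with library totals and without siMLK4 vehicle replicate 1. Across topoisomerases and genes of anthracycline handling 8 of 22 fell and 2 rose (median −0.34). TOP1MT, the mitochondrial topoisomerase gene, fell from 1316, 1352 and 1439 to 231, 194 and 270 normalised reads (−2.33, SE 0.13, adjusted p = 3.8e-08), and the xanthine dehydrogenase gene XDH fell by 1.80. TOP3A (0.80) and TOP3B (0.82), which encode type IA topoisomerases, rose.

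Of 42 AP-1, immediate early and ERK feedback genes 17 rose and 1 fell (median 0.54), and 14 rose in siNT cells. FOS had 9.02, 5.98 and 8.65 normalised reads with vehicle and 173, 148 and 120 with doxorubicin (2.09, SE 0.13, adjusted p = 4.9e-08). ATF3 had 208, 197 and 396 with vehicle and 2335, 2560 and 2432 with doxorubicin, and CCN2, a matricellular gene also induced by YAP, had 193, 139 and 231 and 1432, 1378 and 1306. In all 3 genes the lowest doxorubicin library was several times the highest vehicle library. KLF10, the member with the most reads, rose by 1.37, and PHLDA1 was the member that fell (−1.51). Of 24 genes of the MLK kinases and the JNK and p38 cascades none rose and 6 fell (median 0.08), though with library totals 5 rose and 5 fell, and without siMLK4 vehicle replicate 3 1 rose and 7 fell. MAP2K6, the gene of the p38 activator MKK6, fell from 348, 289 and 365 to 27.1, 17.5 and 49 normalised reads (−2.38, SE 0.18, adjusted p = 2e-07). The JNK activator gene MAP2K7 fell by 1.33, and the p38 genes MAPK12, MAPK11 and MAPK13 fell by 1.87, 1.04 and 0.97.

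**Figure D2:**
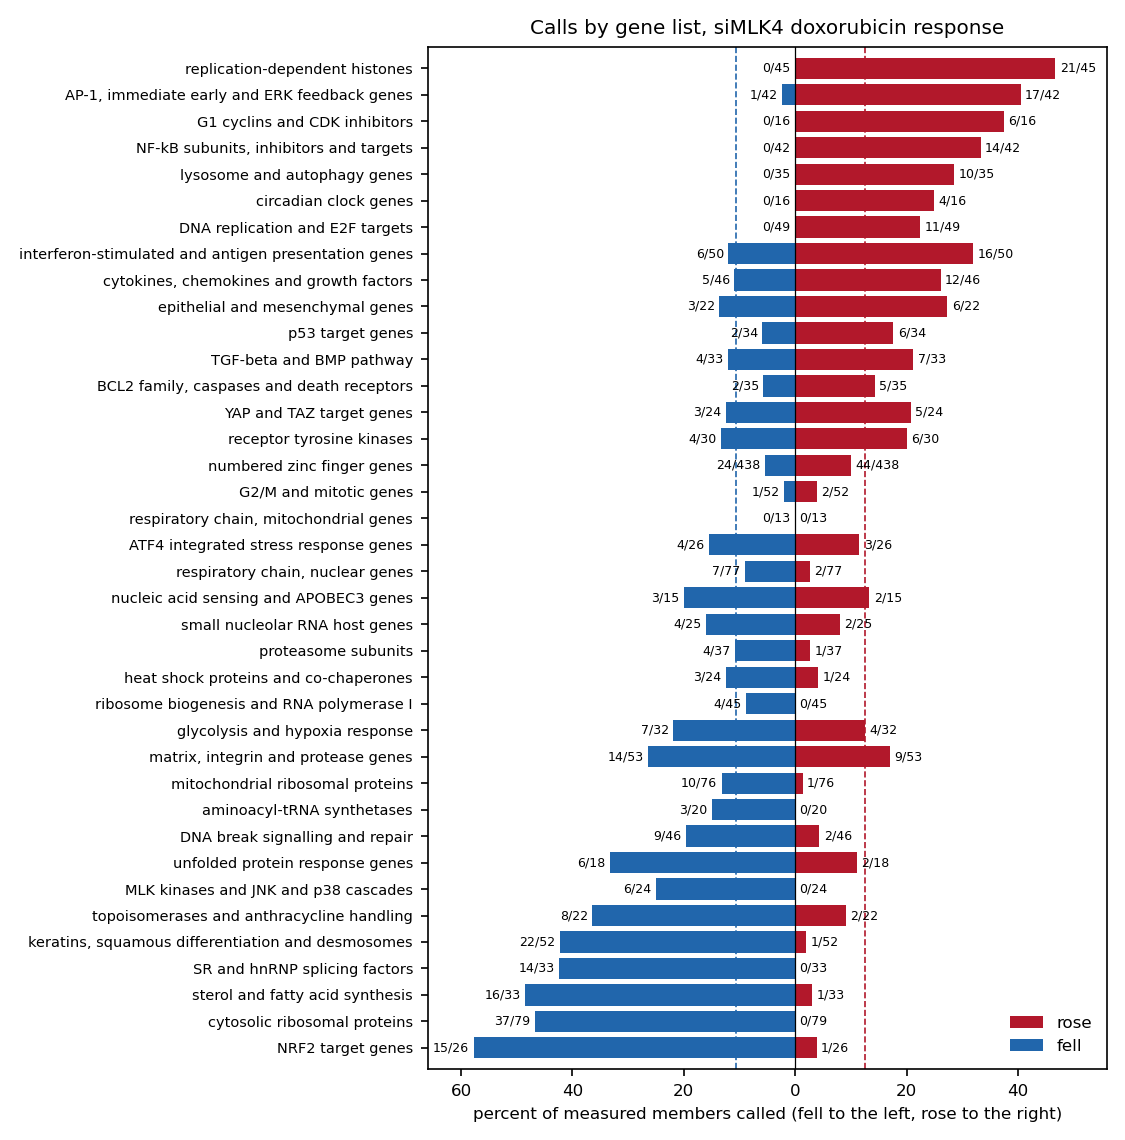
Percent of the measured members of 38 gene lists that rose (right, red) or fell (left, blue) with doxorubicin in siMLK4 cells, with counts of members beside the bars and dashed lines at the 12.6% and 10.6% of all genes. Histones, with 21 of 45 that rose, stand at the top, and NRF2 targets, with 15 of 26 that fell, at the bottom.

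Among NF-κB subunits, inhibitors and targets 14 of 42 rose and none fell (median 0.27). Among the members with at least 10 reads in each library, 10 rose and none fell. In siNT cells 9 rose and 3 fell. IL6, a cytokine gene, had 2, 0 and 3.24 normalised reads with vehicle and 92.4, 65 and 172 with doxorubicin, an at least 35.7-fold rise against a floor of 3 reads per library (2.20, SE 0.21, adjusted p = 1.2e-06). CXCL10, a chemokine gene also driven by interferon, had 4.01, 4.98 and 6.49 with vehicle and 87.3, 72.5 and 109 with doxorubicin (1.72, SE 0.12, adjusted p = 1e-07). CXCL5 rose by 1.47 and CXCL8, the gene of interleukin 8, by 1.39. CD274, the gene of PD-L1, had 88.2, 73.7 and 54.1 normalised reads with vehicle and 190, 193 and 167 with doxorubicin (0.97, SE 0.16, adjusted p = 0.00011). CXCL1 rose by 0.79 (adjusted p = 0.0032) and did not pass without siMLK4 vehicle replicate 1 (0.63), siMLK4 doxorubicin replicate 1 (0.79) or siMLK4 doxorubicin replicate 3 (0.62). The member with the most reads, TNFAIP2, changed by 0.24 (adjusted p = 0.029).

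Of 46 cytokine, chemokine and growth factor genes, which share the chemokines above, 12 rose and 5 fell (median 0.20). Among the members with at least 10 reads in each library, 8 rose and 5 fell. TNFSF15 rose by 0.95, while VEGFB (−1.60), PDGFA (−1.36) and the death ligand gene TNFSF10 (−1.15) fell with IL18. CXCL6 had 34.1, 29.9 and 46.5 normalised reads with vehicle and 23.7, 20.8 and 39.9 with doxorubicin, with overlapping groups (−0.19, adjusted p = 0.21). IL12A (−0.03, adjusted p = 0.82), IL24 (0.30, adjusted p = 0.17) and the cathepsin gene CTSL (0.13, adjusted p = 0.4) did not pass either. In siNT cells the log2 changes were 3.92 for IL6, 0.55 for CXCL10, 0.96 for CXCL8, 2.24 for TNFSF15 and 1.73 for IL24. The difference of the responses was −1.72 for IL6 (adjusted p = 0.011), −1.29 for TNFSF15 (adjusted p = 0.034) and −1.43 for IL24 (adjusted p = 0.015), none of which passed, and 1.17 for CXCL10 (adjusted p = 0.0047), which did.

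Of 50 interferon-stimulated and antigen presentation genes 16 rose and 6 fell (median 0.11), the falls being 12%, near the 10.6% of all genes. With library totals 18 rose and 3 fell, and without siMLK4 doxorubicin replicate 2 17 rose and 3 fell. HLA-B, which encodes an MHC class I heavy chain, rose from 2097, 2512 and 3588 normalised reads to 9504, 8881 and 8991 (1.75, SE 0.18, adjusted p = 3.1e-06), and B2M, the gene of its light chain, changed by 0.50 (adjusted p = 0.0053), below the size threshold. OASL (1.57), CMPK2 (1.44) and IFI27 (1.39) rose. OAS1, an RNA sensor gene that activates RNase L, fell from 496, 474 and 481 to 94.1, 79.2 and 175 (−1.74, SE 0.21, adjusted p = 8.9e-06), with IFI44 (−1.10) and GBP2 (−1.09). Among 15 genes of nucleic acid sensing and the APOBEC3 family 2 rose and 3 fell (median −0.16), and 2 fell with library totals or without siMLK4 vehicle replicate 3. IRF3, the transcription factor gene downstream of nucleic acid sensors, rose by 1.25 and CGAS by 0.80, and the cytidine deaminase gene APOBEC3C fell from 1863, 1731 and 2778 to 466, 374 and 638 normalised reads (a 4.31-fold lower mean, SE of the log2 change 0.20, adjusted p = 2.6e-06). The CGAS rise did not pass without siMLK4 doxorubicin replicate 3.

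Of 45 replication-dependent histone genes 21 rose and none fell (median 0.74). In siNT cells 23 rose and none fell. Their summed normalised reads were 3649, 3737 and 5256 with vehicle and 8825, 9188 and 7698 with doxorubicin, without overlap. H2AC25 had 106, 111 and 192 normalised reads with vehicle and 754, 710 and 539 with doxorubicin (1.97, SE 0.20, adjusted p = 2.8e-06). H2AC11 rose from 55.1, 62.8 and 63.8 to 357, 376 and 246 (1.79, SE 0.15, adjusted p = 6.2e-07), H3C10 by 1.65 and H3C1 by 1.63. H1-2, the member with the most reads, changed by 0.46 (adjusted p = 0.087). Most messenger RNAs of these genes lack a poly(A) tail, and the libraries were made from mRNA, so the values cover the part of them that was captured. Copies of histone genes are near identical, and reads may be shared among them. When each library had to hold at least 10 reads of a gene, 12 rose among the members this filter left, so that 12 is not a share of the 45.

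Of 35 genes of lysosomes and autophagy 10 rose and none fell (median 0.31), and 12 rose without siMLK4 vehicle replicate 3. The sialidase gene NEU1 rose from 1981, 2410 and 2596 normalised reads to 5996, 5866 and 5652 (1.31, SE 0.13, adjusted p = 2.4e-06). The lysosomal calcium channel gene MCOLN1 rose by 1.53 and MAP1LC3B, the gene of an autophagosome protein, by 1.36, while SQSTM1, the gene of an autophagy receptor, changed by 0.09 (adjusted p = 0.63). Of 16 circadian clock genes 4 rose and none fell (median 0.04), and 1 fell without siMLK4 vehicle replicate 3. BMAL1, the gene of the activating clock factor, had 203, 160 and 151 normalised reads with vehicle and 918, 1112 and 657 with doxorubicin (2.07, SE 0.18, adjusted p = 6.4e-07), and the repressor genes CRY1 (1.21) and NR1D1 (0.93) rose with it.

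**Figure D3:**
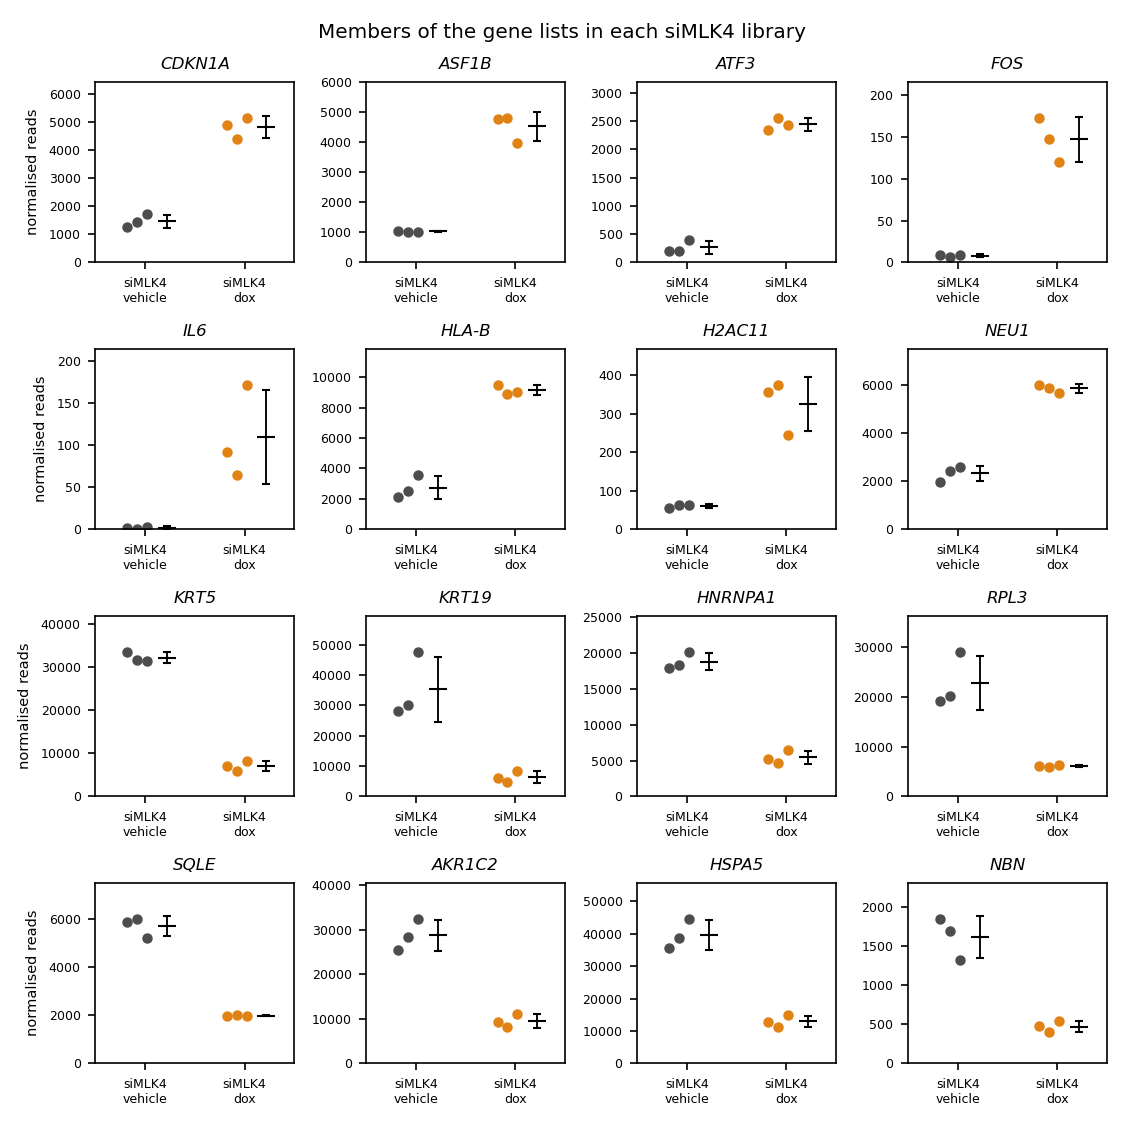
Normalised reads (vertical axes from 0) of 16 genes in each siMLK4 library, with vehicle (grey) and doxorubicin (orange) as points and the mean ± SD (n = 3) as bars beside them. In all 16 genes the groups do not overlap, and the highest vehicle point of KRT19 and RPL3 is replicate 3.

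Of 52 keratins, squamous differentiation and desmosome genes 22 fell and 1 rose (median −0.61), against 23 and 3 in siNT cells. KRT5, a basal keratin gene, fell from 33617, 31750 and 31404 normalised reads to 6996, 5954 and 8156 (−2.20, SE 0.15, adjusted p = 1.2e-07). KRT19 fell from 28033, 30221 and 47769 to 6165, 4573 and 8299 (−2.47, SE 0.23, adjusted p = 1.1e-06). The doxorubicin libraries of both lay well below the vehicle libraries, whereas KRT8, a simple-epithelium keratin gene, had overlapping groups (19801, 23960 and 26253 against 18906, 15157 and 23096 normalised reads, adjusted p = 0.14). TP63, the gene of the master factor of basal epithelium, fell to 1058, 1009 and 1330 normalised reads from the values given above. OVOL1, a transcription factor gene of epithelial differentiation, was the member that rose (1.62). Leaving out siMLK4 vehicle replicate 3, 21 of the 52 fell.

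Of 22 epithelial and mesenchymal genes 6 rose and 3 fell (median 0.20). The transcription factor gene SNAI1 had 18, 17.9 and 22.7 normalised reads with vehicle and 242, 310 and 157 with doxorubicin (2.18, SE 0.21, adjusted p = 1.4e-06). SOX9 (1.35), TWIST1 (1.06) and N-cadherin gene CDH2 (1.00) rose, the related factor gene SNAI2 (−1.09) and the tight junction gene CLDN4 (−1.03) fell, and EPCAM changed by −0.05 (adjusted p = 0.8), or by 0.14 with library totals. VIM, the gene of the intermediate filament vimentin, had 0, 4.98 and 3.24 reads with vehicle and 21.2, 23.3 and 26.3 with doxorubicin (0.93, adjusted p = 9.3e-05), and did not pass without siMLK4 vehicle replicate 1. Of 53 matrix, integrin and protease genes 9 rose and 14 fell (median −0.33). The collagenase gene MMP1 rose by 1.80 and the collagen crosslinking gene LOX by 1.29, and the laminin gene LAMA5 (−1.45) and the metalloproteinase inhibitor gene TIMP3 (−1.65) fell. Of 33 genes of the TGF-β and BMP pathway 7 rose and 4 fell (median 0.21), with the ligand gene TGFB2 at 1.36, the inhibitory pseudoreceptor gene BAMBI at 1.37 and the corepressor gene SKI at −1.73.

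Of 30 receptor tyrosine kinase genes 6 rose and 4 fell (median −0.18), or 20% and 13.3%, near the shares of all genes, and with library totals 6 rose and 2 fell. RET had 18, 22.9 and 13 normalised reads with vehicle and 437, 544 and 220 with doxorubicin (2.85, SE 0.24, adjusted p = 5.1e-07). EPHA4 rose by 2.41 and FGFR1 by 1.47. EGFR fell from 8263, 6339 and 4546 to 2419, 2556 and 2504 (−1.30, SE 0.24, adjusted p = 0.00035), with siMLK4 vehicle replicate 3 the lowest of the vehicle libraries. The list counted 6 rises and 6 falls without siMLK4 vehicle replicate 2, and the same numbers with limma-voom.

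Of 33 genes of sterol and fatty acid synthesis 16 fell and 1 rose (median −0.71), against 16 and 3 in siNT cells. SQLE, a cholesterol synthesis gene, fell from 5887, 6011 and 5217 normalised reads to 1977, 1992 and 1957 (a mean 2.89-fold lower, SE of the log2 change 0.10, adjusted p = 7e-08). LSS, of the same pathway, fell by 1.66 and the fatty acid desaturase gene SCD by 1.48 on the log2 scale. The vehicle and doxorubicin libraries of these 3 genes were all apart, and 16 members fell also without siMLK4 vehicle replicate 3. TM7SF2, a sterol reductase gene, rose (0.97). Of 32 genes of glycolysis and the hypoxia response 4 rose and 7 fell (median −0.46), and 6 rose and 6 fell with library totals. The glycolysis genes LDHA (−1.34), ENO1 (−1.10) and ALDOC (−1.34) fell, while the oxygen sensor gene EGLN3 (1.43), ADM (1.31) and the collagen prolyl hydroxylase gene P4HA1 (1.12) rose.

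NRF2 target genes, which serve glutathione, thioredoxin and NADPH supply, counted 15 of 26 that fell and 1 that rose (median −0.79), against 10 and 1 in siNT cells. AKR1C2, an aldo-keto reductase gene, fell from 25401, 28296 and 32495 normalised reads to 9261, 8184 and 11080 (−1.59, SE 0.14, adjusted p = 8.7e-07), and its reads may be shared with its close homologues. TKT, a pentose phosphate pathway gene, fell by 1.91, PIR by 1.79 and the export pump gene ABCC2 by 1.37, and the epoxide hydrolase gene EPHX1 rose from 1036, 1006 and 1141 to 3597, 3346 and 3017 (1.60, SE 0.11, adjusted p = 1.2e-07). FTH1 had 85858, 105704 and 162206 normalised reads with vehicle and 63547, 57624 and 71134 with doxorubicin (−0.83, adjusted p = 0.0055). It did not pass without any 1 of siMLK4 vehicle replicates 2 and 3 and siMLK4 doxorubicin replicates 1 and 2. The count was 12 of the 26 without siMLK4 vehicle replicate 3 and 9 with library totals.

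Of 18 genes of the unfolded protein response 6 fell and 2 rose (median −0.35), and 4 fell without siMLK4 vehicle replicate 3, while 1 rose without either siMLK4 vehicle replicate 2 or siMLK4 doxorubicin replicate 2. HSPA5, the gene of BiP, fell from 35483, 38696 and 44638 normalised reads to 12701, 11354 and 14800 (−1.61, SE 0.15, adjusted p = 9.5e-07), as did CALR (−1.49) and PDIA4 (−1.06), and DNAJB9 rose (1.03). Of 24 heat shock genes 3 fell and 1 rose (median −0.14), and 3 fell and 3 rose with library totals, or 5 and 1 without siMLK4 vehicle replicate 3. HSP90AA1 (−1.65), HSP90AB1 (−1.31) and the mitochondrial chaperone gene HSPD1 (−1.11) fell, and the small heat shock gene HSPB8 rose (1.28). Of 26 ATF4 targets 4 fell and 3 rose (median −0.45), against 15 and 1 in siNT cells (median −1.04), and 0 of the 26 passed the test of the difference. The 4 falls were 3 with library totals and 2 without siMLK4 doxorubicin replicate 2. ATF5 rose from 278, 340 and 293 to 1171, 996 and 1224 normalised reads (1.73, SE 0.12, adjusted p = 1.1e-07), and the amino acid transporter gene SLC7A5 fell by 1.22. DDIT3, the gene of CHOP, had 317, 370 and 987 with vehicle and 1786, 1376 and 2159 with doxorubicin (1.72, SE 0.35, adjusted p = 0.00078). Of 20 aminoacyl-tRNA synthetase genes none rose and 3 fell (median −0.30), led by EPRS1 (−1.51).

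Of 33 SR and hnRNP splicing factor genes 14 fell and none rose (median −0.69), against 16 and 0 in siNT cells. HNRNPA1 fell from 17911, 18350 and 20222 normalised reads to 5207, 4623 and 6484 (−1.79, SE 0.14, adjusted p = 2.9e-07), HNRNPR by 1.77 and SRSF1 by 1.73. HNRNPA2B1, the member with the most reads, fell by 0.91, but missed the size threshold with library totals, where 9 members fell. Leaving out siMLK4 vehicle replicate 3 gave 15 members that fell.

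Of 79 cytosolic ribosomal protein genes 37 fell and none rose (median −0.72), against 26 and 0 in siNT cells. Their summed normalised reads were 985447, 1146594 and 1800823 with vehicle and 754233, 691874 and 824723 with doxorubicin. Without siMLK4 vehicle replicate 3, whose sum is the highest of the 6, 19 of the 79 fell, and with library totals 23. RPL3 fell from 19207, 20187 and 29083 to 6002, 5890 and 6320 (−1.88, SE 0.15, adjusted p = 3.7e-07), with RPL5 (−1.54), RPL21 (−1.42) and RPL13 (−1.40). RPS2, the member with the most reads, had overlapping groups (−0.29, adjusted p = 0.17). Many of these genes have processed pseudogenes that can share reads. Among 45 ribosome biogenesis and RNA polymerase I genes 4 fell and none rose (median −0.32), or 2 and 2 with library totals, with NHP2 at −1.43 and NPM1 at −0.99.

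Of 76 mitochondrial ribosomal protein genes 10 fell and 1, MRPS6 (1.51), rose (median −0.15), with MRPL24 (−1.77), MRPL28 (−1.61) and MRPL27 (−1.60) lowest. Of 77 nuclear genes of the respiratory chain 7 fell and 2 rose (median −0.16), which became 2 and 4 with library totals and also without siMLK4 vehicle replicate 3. Without siMLK4 doxorubicin replicate 2 these counts were 3 and 1, and without siMLK4 vehicle replicate 2 they were 7 and 0. ATP5MC2, an ATP synthase subunit gene, fell from 987, 1021 and 1938 to 247, 218 and 258 normalised reads (−2.16, SE 0.22, adjusted p = 2.2e-06). Of the 13 genes of the mitochondrial genome in this list 0 passed (median 0.07). The mitochondrial genome gave 3.25%, 2.6% and 3.07% of reads with vehicle and 3.84%, 4.56% and 4.75% with doxorubicin, and MT-RNR2 took the most reads in every library. Of 37 proteasome genes 4 fell and 1 rose (median −0.21), the last being PSMB10 (1.02), an immunoproteasome subunit gene. Without siMLK4 vehicle replicate 3, 3 mitochondrial ribosomal protein genes and 2 proteasome genes rose.

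By class, long non-coding RNA genes rose more often than they fell, with 19.6% of 2462 that rose and 4.31% that fell (median 0.26). Of 13611 protein-coding genes 11.6% rose and 12.2% fell (median −0.02), but with library totals 16.1% rose and 8.54% fell. Rises were also more frequent in genes with few reads: 16.8% of the lowest and 17.2% of the second quartile by mean normalised reads rose, against 6.25% of the highest, while 3.83% of the lowest and 12.5% of the highest fell. A gene could enter the table through the doxorubicin libraries alone, as 219, 213 and 200 genes had no read in the vehicle libraries against 17, 21 and 17 in the doxorubicin libraries. The filter may have kept genes by their highest group, whose lowest mean was 10.67 normalised reads, but this was only read from the values. The part of this filter in the surplus of rises among low genes was not tested. In siNT cells 22.4% of long non-coding RNA genes rose and 2.76% fell.

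Gene structure went with the direction of change as well. Of 485 protein-coding genes with a single exon, the usual structure of replication-dependent histone genes, 19% rose and 8.45% fell, whereas of 1954 with 20 or more exons 8.9% rose and 13.4% fell, or 12% and 9.01% with library totals. Of 528 protein-coding genes spanning over 300 kb 8.52% rose and 18.8% fell (median −0.13), against 13.3% and 12.1% of 2594 genes under 10 kb. Without siMLK4 vehicle replicate 3, which had the surplus of reads from short genes, 8.14% of the longest genes rose and 21% fell, and 14.6% and 10.1% of the shortest. With library totals 13.3% of the longest and 8.98% of the shortest fell. The longest genes fell more often than the 10.6% of all genes in 3 of the 4 read quartiles, at 25%, 25.2% and 19.7% from the second quartile up, and at 4.26% in the lowest. Among chromosomes, chromosome 6, which carries the main histone cluster and the MHC, had the highest share that rose, 17.7% of 926 genes, and in siNT cells 17.4% of its genes rose.

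**Figure D4:**
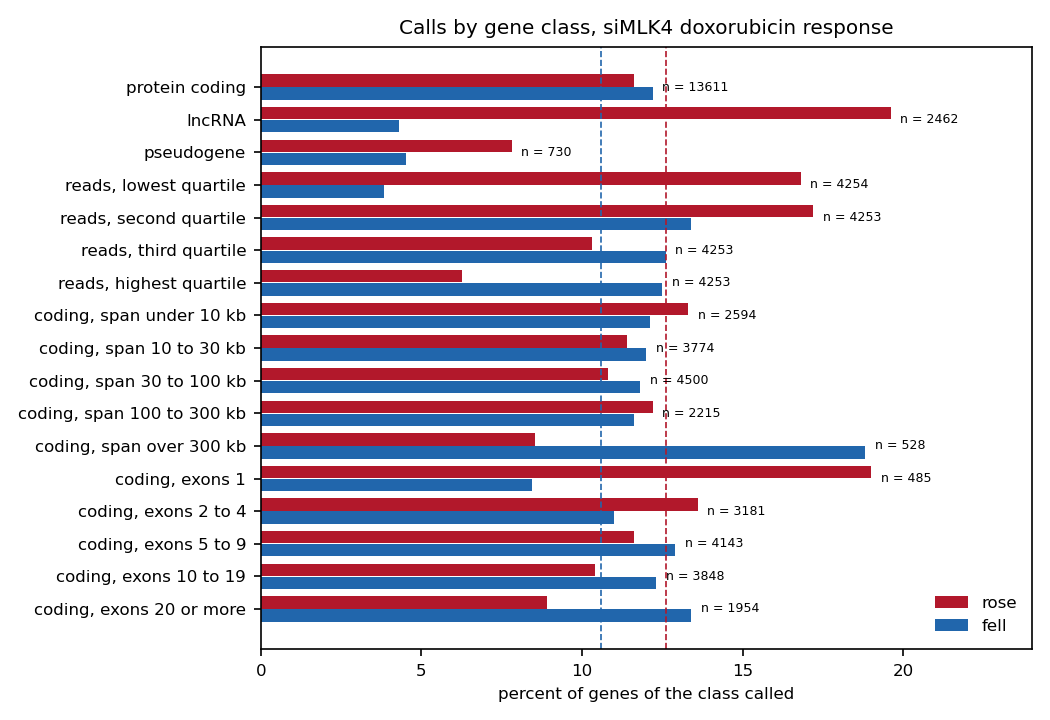
Percent of genes that rose (red) or fell (blue) with doxorubicin in siMLK4 cells by biotype, quartile of mean normalised reads, genomic span and exon number of protein-coding genes, with dashed lines at 12.6% and 10.6% of all genes. Long non-coding and single-exon genes show the longest red bars (19.6% and 19%), and genes spanning over 300 kb the longest blue bar (18.8%).

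Promoters were read from RefSeq (GRCh38.p14, 250 bases before to 50 after the gene start, both strands) for 12029 of the 17013 genes. CCAAT was found in 36.6% of all promoters, in 40.5% of those of genes that rose and in 30.8% of those that fell. The AP-1 motif (TGACTCA or TGAGTCA) was in 3.3%, 2.43% and 4.78%, the E2F motif (TTTGGCGC or TTTCGCGC) in 1.98%, 3.18% and 1.98%, and the CRE motif (TGACGTCA) in 3.15%, 3.99% and 1.84%, respectively. In the same order, the NF-κB site was in 13.2%, 15.4% and 13.5%, TATAAA in 6.15%, 7.23% and 7.71%, the GC box GGGCGG in 68.8%, 70% and 64.3%, and the cell cycle homology region (TTTGAA or TTCGAA) in 11.3%, 11.6% and 12.2%. These shares describe letters in a window, and a match does not show a bound site.

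Among 7 lists searched, TATAAA was in 60.5% and CCAAT in 79.1% of 43 histone promoters, the E2F motif in 29.3% of 41 promoters of the replication list, and the NF-κB site in 50% of 36 promoters of the NF-κB list, whose members are partly known as such because of that site. In 31 promoters of the AP-1 list, of whose measured members 17 of 42 rose, the AP-1 motif was in 3.23%, against 3.3% of all promoters. In 26 promoters of the sterol list, of whose measured members 16 of 33 fell, CCAAT was in 69.2% and the GC box in 92.3%, so that shares far from those of all promoters were not confined to lists that rose. For the histone, replication and NF-κB lists the promoter of a member that rose and holds the motifs is shown, not always the member with the largest rise. Capitals mark only those motifs, which let the shared letters be seen. In H2AC11 they are TATAAA (also as TTTATA on this strand) and CCAAT (also as ATTGG).
H2AC11, chr6:27132793-27133092, + strand: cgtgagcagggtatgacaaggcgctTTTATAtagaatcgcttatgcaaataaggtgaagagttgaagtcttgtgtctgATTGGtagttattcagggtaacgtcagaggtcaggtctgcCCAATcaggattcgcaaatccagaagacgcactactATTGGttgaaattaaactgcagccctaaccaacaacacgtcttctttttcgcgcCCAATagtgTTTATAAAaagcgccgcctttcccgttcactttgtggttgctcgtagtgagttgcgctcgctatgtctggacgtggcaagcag
E2F2, chr1:23531184-23531483, − strand: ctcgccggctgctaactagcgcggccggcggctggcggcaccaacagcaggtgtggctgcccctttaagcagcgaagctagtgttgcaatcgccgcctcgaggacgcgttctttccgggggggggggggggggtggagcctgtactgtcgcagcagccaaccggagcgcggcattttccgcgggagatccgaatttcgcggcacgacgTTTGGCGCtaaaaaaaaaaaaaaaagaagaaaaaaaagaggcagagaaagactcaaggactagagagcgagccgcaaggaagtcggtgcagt
IL6, chr7:22726950-22727249, + strand: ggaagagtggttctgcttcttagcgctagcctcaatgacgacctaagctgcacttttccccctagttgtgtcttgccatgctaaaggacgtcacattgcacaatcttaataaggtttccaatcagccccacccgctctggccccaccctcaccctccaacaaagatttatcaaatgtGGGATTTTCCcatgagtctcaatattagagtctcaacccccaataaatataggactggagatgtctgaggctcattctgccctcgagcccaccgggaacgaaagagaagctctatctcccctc
The match in E2F2 begins 42 bases before the start and that in IL6 73 bases before it. In H2AC11 the matches nearest to the start are a CCAAT 42 bases before it and 2 overlapping TATAAA matches, on opposite strands, that begin 33 and 31 bases before it.

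The difference between the doxorubicin responses of siMLK4 and siNT cells was tested as an interaction. It passed for 47 of 17013 genes (0.276%), with a higher response in siMLK4 cells for 17 and a lower response for 30, while 2469 genes had an unadjusted p under 0.05. The count was 149 with the replicate number as a block. Without the block it rested on single libraries: it was 0 without siMLK4 doxorubicin replicate 1 and between 6 and 37 without any other library. The responses of siMLK4 and siNT cells were thus mostly not told apart at this size of experiment, which does not show that they were alike.

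Among genes with a higher response in siMLK4 cells were DUSP6 and ETV5, a phosphatase gene and a transcription factor gene that ERK signalling induces. DUSP6 rose in siMLK4 cells from 176, 216 and 171 normalised reads to 479, 544 and 510 (1.24, SE 0.12, adjusted p = 1.8e-06) and had 1686, 1220 and 1470 with vehicle and 1160, 1164 and 1204 with doxorubicin in siNT cells. The difference was 1.53 (SE 0.17, adjusted p = 0.0016). ETV5 rose from 223, 206 and 182 to 588, 670 and 509 (1.33), and the difference was 1.61 (SE 0.25, adjusted p = 0.0074). In both genes the siMLK4 doxorubicin libraries remained below every siNT library. EGR1, an immediate early gene, showed the same order, with 98.2, 95.7 and 89.7 normalised reads with vehicle and 419, 355 and 441 with doxorubicin in siMLK4 cells, 477, 369 and 518 with vehicle in siNT cells and a difference of 1.10 (adjusted p = 0.0074), although its siMLK4 doxorubicin libraries overlapped the siNT vehicle libraries. MPC1, a mitochondrial pyruvate carrier gene, rose in siMLK4 cells (1.43; difference 1.19, adjusted p = 0.0056). GPR153 and SAPCD2 changed by 0.11 and −0.07 in siMLK4 cells and by −1.35 and −1.41 in siNT cells.

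Among genes with a lower response in siMLK4 cells, the receptor gene KIT had responses of opposite sign. It fell in siMLK4 cells from 402, 338 and 281 normalised reads to 128, 108 and 138 (−1.16, SE 0.13, adjusted p = 7e-06) and had 66.9, 68.5 and 77.5 with vehicle and 117, 144 and 158 with doxorubicin in siNT cells (difference −1.83, SE 0.19, adjusted p = 0.0016). After the drug the siMLK4 and siNT values of KIT thus overlapped. PADI2, a peptidyl arginine deiminase gene, had 75.1, 71.7 and 85.4 with vehicle and 120, 113 and 111 with doxorubicin in siMLK4 cells, and 54, 78.9 and 99.9 and 444, 590 and 678 in siNT cells (difference −1.93, SE 0.22, adjusted p = 0.0016). RASSF10 (−1.62), BASP1 (−1.59), NYNRIN (−1.51), PLAT (−1.30), the gene of tissue plasminogen activator, and ID2 (−1.23), an inhibitor of basic helix-loop-helix factors, passed as well. ID2 rose in both siRNA groups, by 1.73 and 2.95.

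**Figure D5:**
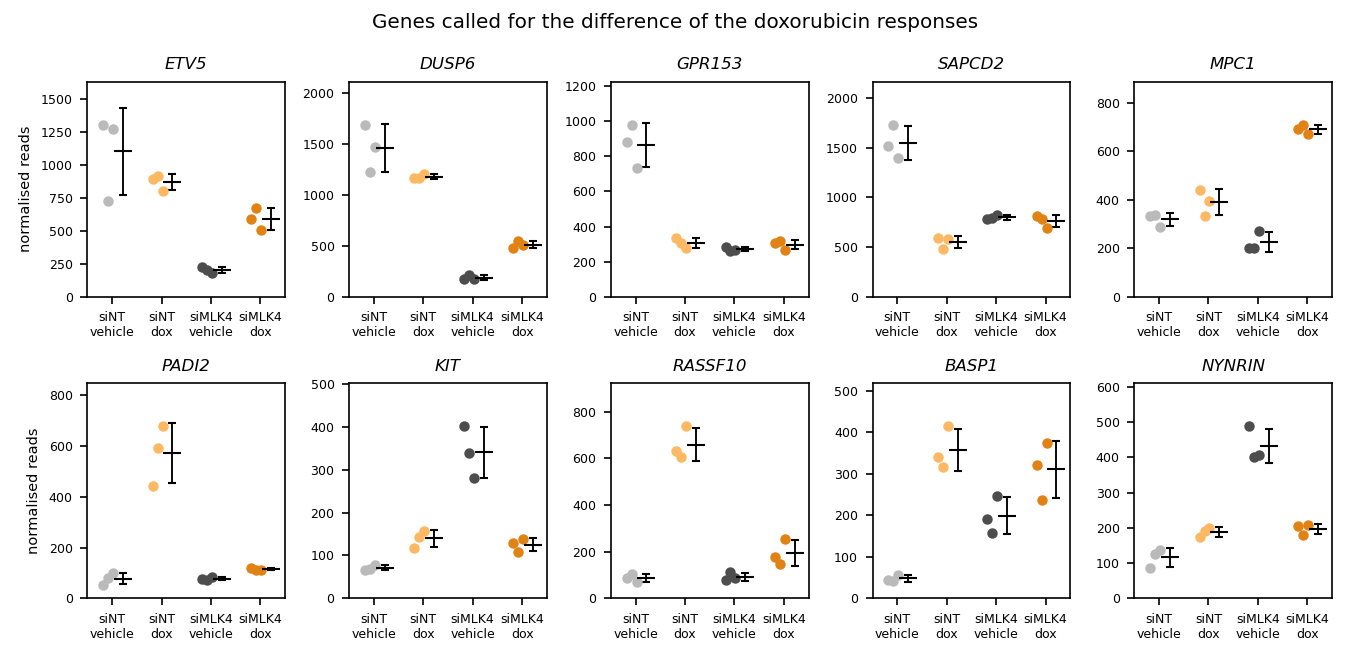
Normalised reads (vertical axes from 0) in all 12 libraries of 10 genes that passed the test of the difference, with points for libraries and bars for the mean ± SD (n = 3). DUSP6 and ETV5 start lower in siMLK4 cells and rise, and PADI2 and RASSF10 rise less in siMLK4 than in siNT cells.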

How the data were processed

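Expression was measured by mRNA-seq in 12 libraries, 3 for each of 4 groups, which were grouped by the sample labels. The descriptions of siMLK4 doxorubicin replicates 2 and 3 end in the same tag, and they were told apart by their titles, which the table's column names match. According to the submitters' processing notes and the study's methods, the authors trimmed reads (Trimmomatic 0.39), mapped them (HISAT2), counted reads per gene by strand (HTSeq 0.6.0) and used DESeq2 1.26.0. The build is named both hg19 and GRCh38, and the table has no coordinates, so those printed are from GENCODE release 44. The log2 values deposited by the authors are variance-stabilised, which was read from the values: inverting the transformation gave whole reads (within 0.05) for 100% of values, and size factors from 0.8516 to 1.1993. The table is filtered, since the lowest mean of a gene's highest group is 10.67 normalised reads. The libraries held 16759025 to 19302248 reads, and the floor of 3 reads covers counting error only.

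The log2 values were fitted with limma 3.58.1 in R 4.3.3 (4 group means, all 12 libraries, variance trend, Benjamini-Hochberg adjustment). Each pair of replicates differed beyond sampling noise (chi-square per degree of freedom 6.92 to 60.43). On simulated data for the siMLK4 response, 92% of 200 changed genes and 0 unchanged genes were called. In the real data 3949 genes were called, far more than were changed in the simulation. The simulated rates therefore do not give the error rate of the real calls. Alternatives were other scalings, a read filter, a replicate block, other scales, no trend, fewer libraries and other thresholds. Of 17013 genes, 16957 were annotated.

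The members and gene lists were chosen with earlier results of these data known. Named are MAP3K21, TOP2A and TOP2B, the 10 protein-coding genes with the largest rise and fall (groups apart, at least 50 normalised reads in the higher), up to 4 members of each list in each direction and its member with the most reads, the 5 largest differences in each direction and genes the study names. Markers of cell types were also named, and some genes that the rule names are not reported here.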

Additional observations from a re-analysis of the deposited data

Results flagged for a closer look

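The doxorubicin response differed between siMLK4 and siNT cells for the following genes among those named, each by the interaction test with an adjusted p under 0.01. The difference (siMLK4 response minus siNT response, log2) was 1.61 for ETV5, 1.53 for DUSP6, 1.46 for GPR153, 1.34 for SAPCD2, 1.19 for MPC1, 1.17 for CXCL10 and 1.10 for EGR1. It was −1.93 for PADI2, −1.83 for KIT, −1.62 for RASSF10, −1.59 for BASP1, −1.51 for NYNRIN, −1.30 for PLAT and −1.23 for ID2. None of them passed without siMLK4 doxorubicin replicate 1. TGFA, a ligand gene of EGFR, is listed because each siMLK4 library moved up and each siNT library moved down with doxorubicin; its difference was 0.83 and did not pass (adjusted p = 0.028).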

How the results depend on the processing

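In the 22 alternative settings none of the 226 named genes that passed in siMLK4 cells changed sign. Of the 260 named genes, 6 that did not pass had the other sign in some setting (MKI67, SQSTM1, EPCAM, ATP5F1B, SAPCD2 and IL12A). Of the 226, 34 missed a threshold in at least 1 setting other than the altered thresholds, 31 of them when a library was left out. Of 38 lists, 26 kept their leading direction in all settings. With an adjusted p under 0.05 and no size threshold 9858 genes passed in siMLK4 cells (5142 up, 4716 down), 9745 in siNT cells and 204 for the difference. With a size threshold of 1 the counts were 2168 in siMLK4 cells (1172 up, 996 down) and 2078 in siNT cells. When each library had to hold at least 10 reads of a gene 1290 rose, and the share of calls that were rises was 44.3%. It was 69.4% with library totals as the scaling. Limma-voom gave 29 genes for the difference. Leaving out 1 library gave 3508 to 4419 genes in siMLK4 cells (1906 to 2416 up, 1602 to 2003 down, 53.7% to 55.2% of them rises), 3602 to 4186 in siNT cells and 0 to 37 for the difference.

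With the replicate number as a block within each siRNA group 3981 genes passed in siMLK4 cells and 149 for the difference. Deviations of equally numbered vehicle and doxorubicin libraries correlated at −0.08, 0.18 and 0.34 in siMLK4 cells and at 0.46, 0.11 and 0.2 in siNT cells, so that every pair was over 0.1 in siNT cells but not in siMLK4 cells, and no source says what a number marks. In siNT cells 3881 genes passed with the block. With 3 libraries per group, changes near a threshold depend on single libraries.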

Other observations

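Genes outside the lists, chosen after their values were seen, also changed. LINC00910, a long non-coding RNA gene, had 252, 246 and 245 normalised reads with vehicle and 5526, 6613 and 3931 with doxorubicin in siMLK4 cells (log2 change 4.14, SE 0.18, adjusted p = 9.4e-09), and rose by 4.60 in siNT cells. POLR2A, the gene of the largest RNA polymerase II subunit, rose from 10284, 8062 and 4648 to 27911, 36677 and 20296 (1.91, SE 0.33, adjusted p = 0.00022), and the groups did not overlap. MICB, a stress-induced ligand gene of the NKG2D receptor, rose by 1.92, H2AJ, a replication-independent histone gene, by 1.79 and the tubulin gene TUBA4A by 1.87. MIR205HG, the host gene of an epithelial microRNA, fell from 1999, 1738 and 2365 to 357, 311 and 589 (−2.18, SE 0.19, adjusted p = 5.9e-07).

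Of 438 numbered zinc finger genes 44 rose and 24 fell (median 0.14), below the 12.6% and 10.6% of all genes in both directions. Of 24 YAP and TAZ targets 5 rose and 3 fell (median 0.03), with CCN1 at 1.60 and MYOF at −1.37. Of 25 small nucleolar RNA host genes 2 rose and 4 fell (median −0.42), or 2 and 2 with library totals and 3 and 2 without siMLK4 vehicle replicate 3, and SNHG4 had 378, 347 and 323 normalised reads with vehicle and 42.4, 49.2 and 47.2 with doxorubicin (−2.12, SE 0.12, adjusted p = 3e-08).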
